A study of Mus musculus with 12 samples.

Results

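Proteasome subunits and their assembly factors were taken as every protein-coding gene whose symbol is Psm, then a letter from a to g, then a digit. The rule gave 50 genes, out of 54532 genes of all kinds and 22046 protein-coding genes in the table. It left out 4 genes with such symbols that are not annotated as protein-coding. By role, the 50 were 14 constitutive core particle genes, 17 regulatory particle genes, 5 alternative core subunits, 7 assembly chaperones and 6 activators or inhibitors. The 1 remaining gene, Psmc3ip, encodes a meiotic recombination factor and shares only the start of the symbol, so it is named apart.

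The proteasome degrades proteins that carry ubiquitin chains. Its core particle is a barrel of alpha rings, which gate the channel, and beta rings, which hold the protease sites on the inner wall. The regulatory particle caps the barrel: its base unfolds substrates with a ring of ATPases, and its lid cuts off the ubiquitin chain. Separate chaperones put core and cap together, other activators can take the place of the cap, and interferon can replace the catalytic beta subunits with those of the immunoproteasome. In the limb bud, the proteasome is known for the turnover of cell cycle proteins and for the processing of Gli factors in hedgehog signalling.

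The samples were limb buds of mouse embryos at E12.5, from which cytoplasmic lysates were made. Both genotypes carried a floxed Mettl14 allele. The cKO group was Mettl14 flox/flox and labelled as a Mettl14 knockout, and the cHet control group was Mettl14 wt/flox. Mettl14 encodes a subunit of the enzyme that writes N6-methyladenosine on RNA. From each lysate, RNA was sequenced after a sucrose gradient that collects mRNA carrying ribosomes (polysome) and before it (input). This gave 4 groups of 3 libraries: cKO polysome, cHet polysome, cKO input and cHet input. The driver of the recombinase, the deleted exons and any pooling of embryos are not given in the sources used here. The labels call the 3 libraries of a group biological replicates, and the p-values measure only the spread between these libraries.

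Values are FPKM, fragments per kilobase of gene model scaled for depth, so that genes of different length can be set side by side. The libraries held 10349912 to 30068823 assigned reads, and the 50 genes together took 0.447% to 0.649% of them. All 12 limb mesenchyme markers reached a mean of 1 FPKM, as did 8 of 8 epidermis, 8 of 8 endothelium, 10 of 10 erythroid, 7 of 8 muscle and 11 of 12 macrophage markers. In bulk RNA of whole limb buds, fewer cells of a type and less RNA per cell cannot be told apart. Mettl14 had 2.73, 2.81 and 3.29 FPKM in the cKO polysome libraries, against 2.83, 3.07 and 3.02 FPKM in the cHet polysome libraries. In input it had 2.60, 3.32 and 1.26 FPKM in cKO, against 4.09, 4.03 and 4.04 FPKM in cHet, so reads on this gene remained in all cKO libraries. In a principal component analysis of 13610 genes, cKO polysome replicate 1 had a score of 3.97 on the component that separated the fractions, where the other polysome libraries had 35.5 to 53.8. On the next component, cKO input replicate 3 had -63.0, where the other inputs had 0.49 to 22.5. The counts and medians, and the values of the genes most affected by these libraries, are given also without them.

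Start-site sequence was available for 42 of the 50 genes as RefSeq promoter windows of 300 bases, 250 before and 50 after the annotated start, on GRCm38.p6, which is the mm10 build. Windows of 4 genes are printed because the polysome results below turn on them or because they hold a motif tied to proteasome genes: Psmd2 and Psmd4, regulatory particle base genes low on polysomes, Psmd8, the regulatory particle gene that went the other way, and Psmb6, a catalytic core subunit. Capitals mark matches, on either strand, to any of 4 motifs. One is CCGGAAG, the core of binding sites of ETS factors. Another is GGGCGG, known as the box bound by Sp factors. The third is CCAAT, bound by nuclear factor Y. The last is TGACNNNGC, the core of the antioxidant response element, which is bound by Nfe2l1, the factor that induces proteasome genes when proteasomes fail. In the printed windows no match overlaps another.
Psmd2 (chr16:20651402-20651701, plus strand): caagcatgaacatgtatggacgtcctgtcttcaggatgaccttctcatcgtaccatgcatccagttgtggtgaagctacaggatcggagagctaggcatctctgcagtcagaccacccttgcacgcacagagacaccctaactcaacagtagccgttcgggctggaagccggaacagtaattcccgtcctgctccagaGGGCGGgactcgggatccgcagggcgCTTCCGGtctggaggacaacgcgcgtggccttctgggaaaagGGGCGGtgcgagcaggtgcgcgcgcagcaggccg
Psmd4 (chr3:95042565-95042864, minus strand): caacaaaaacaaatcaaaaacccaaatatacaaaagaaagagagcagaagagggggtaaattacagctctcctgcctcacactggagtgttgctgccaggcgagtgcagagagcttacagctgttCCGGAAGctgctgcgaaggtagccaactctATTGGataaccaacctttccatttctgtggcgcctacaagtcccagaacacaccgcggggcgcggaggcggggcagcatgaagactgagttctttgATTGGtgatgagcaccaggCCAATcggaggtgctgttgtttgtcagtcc
Psmd8 (chr7:29180624-29180923, minus strand): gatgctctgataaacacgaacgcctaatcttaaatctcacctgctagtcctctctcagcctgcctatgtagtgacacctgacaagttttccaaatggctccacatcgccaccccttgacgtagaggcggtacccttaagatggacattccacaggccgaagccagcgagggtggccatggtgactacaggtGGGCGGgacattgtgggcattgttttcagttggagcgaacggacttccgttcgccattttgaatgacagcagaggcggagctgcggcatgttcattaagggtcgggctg
Psmb6 (chr11:70525107-70525406, plus strand): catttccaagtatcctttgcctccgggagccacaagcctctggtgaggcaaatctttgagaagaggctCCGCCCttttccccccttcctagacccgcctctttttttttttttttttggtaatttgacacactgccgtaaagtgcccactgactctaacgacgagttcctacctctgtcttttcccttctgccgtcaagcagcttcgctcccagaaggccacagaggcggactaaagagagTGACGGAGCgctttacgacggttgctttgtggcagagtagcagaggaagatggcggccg
The Psmd2 window held CCGGAAG on the opposite strand, starting 26 bases before the start site, and GGGCGG 52 bases before and 17 bases after it. Psmd4 held CCGGAAG 125 bases before the start, and Psmd8 held no CCGGAAG. Psmb6 held TGACNNNGC 9 bases before the start and GGGCGG on the opposite strand. Over the windows, CCGGAAG stood in 9 of 14 matched regulatory particle genes (Psmc1, Psmc2, Psmc6, Psmd2, Psmd4, Psmd6, Psmd11, Psmd12 and Psmd13) and in 1 of 11 matched core genes (Psma6), where 9.93% of 27025 genes with a window had it. GGGCGG stood in 10 of 14 regulatory particle and 5 of 11 core genes, against 38.2% of all genes. CCAAT stood in 4 of 14 regulatory particle and 6 of 11 core genes, against 41.1%, and TGACNNNGC in 2 of 14 and 2 of 11, against 14%. Among regulatory particle genes with a window, Psmd1, Psmc4 and Psmc5 had no CCGGAAG and were lower on cHet polysomes (below). Psmd6 and Psmc6 had the motif and were not called there, and Psmd14 had neither the motif nor a call. These are letter matches in a short window and were not tested for factor binding or for a tie to polysome levels.

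Every constitutive core and regulatory particle gene was detected in every library. In cKO input the core genes spanned a 4.26-fold range of mean level and the regulatory particle genes a 9.52-fold range. In cHet input the same ranges were 4.50-fold and 7.31-fold. Psma6, an alpha ring subunit, was the highest core gene, with 118, 122 and 106 FPKM in cKO input and 132, 134 and 139 FPKM in cHet input. Psmb7, which carries the trypsin-like site, was the lowest, with 24.8, 27.0 and 29.3 FPKM in cKO input and 29.2, 29.3 and 31.4 FPKM in cHet input. Both kept these places in all 4 groups. The other 2 constitutive catalytic subunits stood near the top. Psmb6, the caspase-like subunit, had 78.7, 99.0 and 120.4 FPKM in cKO input and 118, 119 and 125 FPKM in cHet input. Psmb5, the chymotrypsin-like subunit and the target of proteasome inhibitor drugs, had 67.9, 99.2 and 127 FPKM in cKO input and 102, 107 and 119 FPKM in cHet input. For both genes the cKO libraries spread more widely than the cHet libraries and overlapped them.

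In cKO input, 11 of the 13 neighbouring pairs of core genes in the order of level had libraries that overlapped, so that order is loose. In cHet input the order was Psma6, Psmb6, Psmb4, Psmb5, Psma5, Psmb2, Psma4, Psma7, Psmb3, Psma1, Psmb1, Psma2, Psma3 and Psmb7. Here 3 neighbouring pairs overlapped, namely Psmb6 with Psmb4, Psmb4 with Psmb5, and Psmb3 with Psma1. Of 16 such pairs of regulatory particle genes, 13 overlapped in cKO input and 8 in cHet input. Among regulatory particle genes of cHet input, Psmc5, a base ATPase, was highest, with 76.7, 94.3 and 104 FPKM in cKO and 109, 104 and 118 FPKM in cHet. Psmd7, the lid partner of the deubiquitinase Psmd14, was highest in cKO input, with 114, 108 and 131 FPKM, against 94.7, 90.9 and 97.8 FPKM in cHet input. Psmd1, the large scaffold of the base, was lowest in all 4 groups, with 11.5, 13.2 and 12.547 FPKM in cKO input and 14.5, 14.2 and 16.7 FPKM in cHet input. Psmd1 did not overlap between the genotypes and neither did Psmd7, but in opposite directions. The 6 base ATPases, which form a single ring in the particle, ranged in mean from Psmc2 at 17.3 ± 2.44 to Psmc5 at 91.6 ± 13.8 FPKM in cKO input, and from Psmc2 at 22.1 ± 0.531 to Psmc5 at 110.4 ± 7.18 FPKM in cHet input (SD, n = 3 each).

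**Figure D1:**
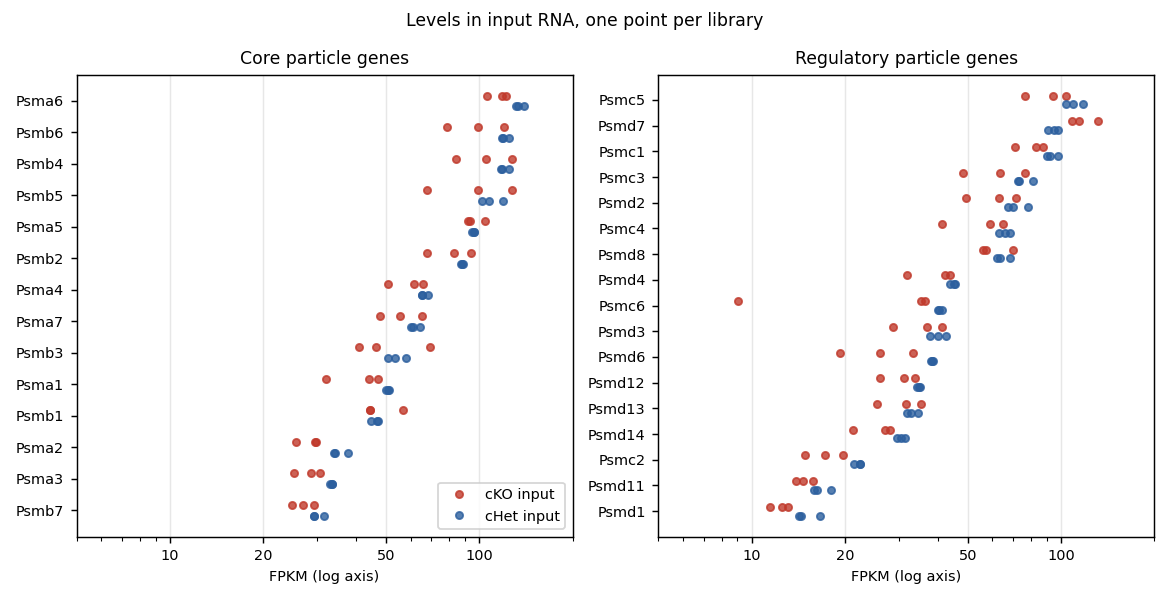
FPKM of the 14 core genes (left) and the 17 regulatory particle genes (right) in the 6 input libraries, one point per library on a log axis, cKO above cHet and genes ordered by their cHet mean. The cHet points of a gene lie close together, while cKO points spread, most of all for Psmc6 with one library at 9.05 FPKM.

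The subunits of alternative proteasomes were near the lower end of detection, except for Psmb10. Psmb8, the immunoproteasome counterpart of Psmb5, had 0.283, 0.346 and 0.333 FPKM in cKO input and 0.199, 0.257 and 0.319 FPKM in cHet input, from 15 to 25 reads per library. Psmb9, the counterpart of Psmb6, had 0.254, 0.360 and 0.373 FPKM in cKO input and 0.315, 0.385 and 0.229 FPKM in cHet input. Both overlapped between the genotypes, and neither reached 1 FPKM in any library. On polysomes Psmb8 had 0.567, 0.364 and 0.310 FPKM in cKO and 0.707, 0.102 and 0.410 FPKM in cHet. Psmb9 had 0.788, 0.482 and 0.354 FPKM in cKO polysomes and 0.601, 0.407 and 0.533 FPKM in cHet polysomes. These 2 genes are neighbours on chromosome 17, Psmb9 at chr17:34181988-34187764 on the minus strand and Psmb8 at chr17:34197721-34201454 on the plus strand, 9956 bases apart in mm10.

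Psmb10, the counterpart of Psmb7, was well above them, with 5.45, 6.37 and 7.47 FPKM in cKO input and 6.64, 7.05 and 6.03 FPKM in cHet input. On polysomes it had 5.33, 6.81 and 8.16 FPKM in cKO and 7.84, 9.11 and 7.94 FPKM in cHet. The genotypes overlapped in both fractions. As ratios of mean FPKM, Psmb5 exceeded Psmb8 by 306-fold in cKO input and 424-fold in cHet input, and Psmb6 exceeded Psmb9 by 302-fold in cKO input and 391-fold in cHet input. Psmb7 exceeded Psmb10 by only 4.20-fold in cKO input and 4.56-fold in cHet input. The immunoproteasome genes are also active in blood cells, and the summed FPKM of the 12 macrophage markers was 59.0 to 83.7 in cKO input and 46.8 to 51.8 in cHet input. On polysomes it was 102 in cKO replicate 1, 73.2 and 79.8 in cKO replicates 2 and 3, and 55.3 to 61.5 in cHet. None of the markers was at 0 in all libraries. The part of such cells in these levels was not tested. Of 16 interferon and antigen presentation genes, 7 reached a mean of 1 FPKM, and none differed between genotypes in either fraction past the threshold used below. Between fractions, B2m, the light chain of class I molecules, was higher on polysomes in both genotypes, with log2 differences of 0.98 in cKO and 1.12 in cHet, and Tap1, a peptide transporter, was lower in cHet (-0.94, adjusted p = 0.0172).

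Psma8, an alpha subunit of male germ cells, had 0.275, 0.340 and 0.168 FPKM in cKO input and 0.415, 0.499 and 0.350 FPKM in cHet input. On polysomes it had 0.236, 0.362 and 0.177 FPKM in cKO and 0.649, 0.660 and 0.981 FPKM in cHet, from 6 to 40 reads per library. In both fractions the 3 cKO libraries were all below the 3 cHet libraries, at a level too low for the test. Of all genes tested, 29.3% did not overlap between the genotypes in input and 31.4% on polysomes. Psmb11, the beta subunit of the thymus cortex, was at or near 0, with 0 to 5 reads in each library. It had no read in cKO polysome replicates 1 and 2, where a count of 0 allows up to 0.0278 and 0.0240 FPKM (3 reads, counting error only). Psmb11 lies 3410 bases from Psmb5 on chromosome 14, Psmb5 at chr14:54614119-54618022 on the minus strand and Psmb11 at chr14:54621433-54629556 on the plus strand.

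Polysome and input RNA of the same genotype were compared next, as log2(FPKM + 0.1), polysome minus input, with limma over all 12 libraries. A gene was tested when it reached 1 FPKM in at least 3 libraries, which 46 of the 50 did: Psma8, Psmb8, Psmb9 and Psmb11 did not. Calls are at an adjusted p under 0.05, by Benjamini-Hochberg over the 13610 genes tested. The input is the RNA of the same lysate. A positive value means a higher level relative to other genes in the polysome fraction than in input, not a larger number of molecules.

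In cKO limb buds, 2 of 4 core chaperones, 3 of 5 activators and 3 of 14 core genes were higher on polysomes than in input, and both large base scaffolds were lower. Of 46 genes tested, 11 were higher and 2 lower, where 32.5% of all genes tested were called, 16.9% higher and 15.6% lower. The groups did not overlap for 16 of the 46, where 35% of all genes tested did not overlap. Psmd1, the largest scaffold of the base, had 9.43, 6.04 and 6.19 FPKM on cKO polysomes, against 11.5, 13.2 and 12.547 FPKM in cKO input, a log2 difference of -0.80 (SE 0.16, adjusted p = 0.00408). Psmd2, the base scaffold that docks ubiquitin shuttle proteins, had 48.3, 26.5 and 25.2 FPKM on cKO polysomes, against 49.2, 62.9 and 71.6 FPKM in cKO input, a difference of -0.92 (SE 0.22, adjusted p = 0.00919). In both genes cKO polysome replicate 1 was the highest polysome library, and it still lay below all cKO inputs. Psmd8, a lid subunit that joins late in assembly, was the only regulatory particle gene called higher, with 73.9, 85.6 and 88.0 FPKM on cKO polysomes, against 56.0, 57.4 and 69.7 FPKM in cKO input, a difference of 0.44 (SE 0.14, adjusted p = 0.0283). The Psmd8 call was lost without cKO input replicate 1 or 2, and without cKO polysome replicate 2 or 3 (adjusted p from 0.0828 to 0.0937).

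Core genes called higher in cKO were Psmb2, Psma3 and Psma4. Psmb2, a structural beta subunit, had 129.7, 113 and 118 FPKM on cKO polysomes, against 67.6, 83.1 and 93.7 FPKM in cKO input, a log2 difference of 0.57 (SE 0.15, adjusted p = 0.0122). Psma3, an alpha ring subunit, had 44.5, 37.6 and 37.3 FPKM on cKO polysomes, against 28.7, 30.5 and 25.2 FPKM in cKO input, a difference of 0.50 (SE 0.13, adjusted p = 0.0127). Psma4, another alpha ring subunit, had 102, 67.0 and 84.1 FPKM on cKO polysomes, against 65.6, 61.7 and 50.8 FPKM in cKO input, a difference of 0.49 (SE 0.17, adjusted p = 0.0392). All 3 genes had fractions that did not overlap. The Psma4 call was lost with 9 of the 12 libraries left out, and the Psma3 call with protein-coding scaling (0.37, adjusted p = 0.0848). The catalytic subunits did not pass: the differences were -0.07 for Psmb5, 0.42 for Psmb6 and -0.16 for Psmb7. On cKO polysomes Psmb5 had 126, 80.4 and 72.1 FPKM, Psmb6 had 158, 105 and 136 FPKM and Psmb7 had 31.2, 21.1 and 21.4 FPKM. In each of these 3, replicate 1 was the highest polysome library.

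Among chaperones, Psmg3, which with Psmg4 seeds the alpha ring, had 8.17, 9.45 and 12.6 FPKM on cKO polysomes, against 3.68, 3.77 and 6.29 FPKM in cKO input, a log2 difference of 1.14 (SE 0.21, adjusted p = 0.00244). Psmd9, a chaperone of the base, had 12.4, 10.8 and 14.7 FPKM on cKO polysomes, against 6.79, 7.32 and 9.44 FPKM in cKO input, a difference of 0.68 (SE 0.16, adjusted p = 0.00833). Psmg2, which works with Psmg1 on the same ring, had 58.2, 46.6 and 56.0 FPKM on cKO polysomes, against 37.4, 34.1 and 34.5 FPKM in cKO input, a difference of 0.59 (SE 0.14, adjusted p = 0.00869). Each of the 3 had all polysome libraries above all inputs. Psme2, a subunit of the interferon-inducible activator, had 30.3, 34.2 and 33.4 FPKM on cKO polysomes, against 18.1, 17.2 and 26.3 FPKM in cKO input, a difference of 0.69 (adjusted p = 0.0159). Its polysome libraries were also all above its inputs. Psme3 (0.49), Psme2b (0.41) and Psmc3ip (0.57) were also called higher. The calls of Psme2 and Psme3 were lost without cKO input replicate 1 or 2, and without cKO polysome replicate 2 or 3. The Psme2b call was lost with 9 of the 12 libraries left out, and the Psmc3ip call without cKO polysome replicate 3 (adjusted p = 0.0721).

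In cHet limb buds, regulatory particle genes were lower on polysomes than in input, and core genes as a group were not. Of 46 genes tested, 11 were higher on polysomes and 15 lower, where 53.2% of all genes tested were called, 27.3% higher and 25.9% lower. Of 17 regulatory particle genes, 12 were lower and 1 was higher, with a median log2 difference of -0.91. Of 14 core genes, 2 were higher and none lower, with a median of 0.16, where the median of all genes tested was 0.02. With libraries scaled to their protein-coding total, the median of all genes moved to -0.21, the core median became -0.07 with 1 core gene higher and 5 lower, and 14 regulatory particle genes were lower with a median of -1.14. The gap between core and regulatory particle medians was 1.07 on the log2 scale. It ranged from 0.95 to 1.11 when each library was left out in turn. Another scaling moves both medians alike, so it does not test the gap.

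The lowest values were in the base of the regulatory particle. Psmd2 had 21.5, 23.8 and 22.6 FPKM on cHet polysomes, against 69.7, 67.3 and 78.2 FPKM in cHet input. Psmd1 had 5.96, 5.85 and 5.92 FPKM on cHet polysomes, against 14.5, 14.2 and 16.7 FPKM in cHet input. Psmd4, a ubiquitin receptor, had 19.1, 16.7 and 20.9 FPKM on cHet polysomes, against 43.8, 45.2 and 45.4 FPKM in cHet input. In all 3 genes every polysome library lay below every input library by a wide margin. The log2 differences were -1.66 for Psmd2 (SE 0.22, adjusted p = 0.000195), -1.33 for Psmd1 (SE 0.16, adjusted p = 0.000139) and -1.24 for Psmd4 (SE 0.21, adjusted p = 0.000563). Of the 6 base ATPases, which unfold the substrate, 5 were lower, from -1.09 for Psmc2 to -0.88 for Psmc3. Psmc6 had a log2 difference of -0.75 with an adjusted p of 0.13. Its SE was 0.40, and in cKO input replicate 3, which enters the shared spread, Psmc6 stood at 9.05 FPKM, against 35.3 and 36.2 FPKM in the other cKO inputs. Without that library and cKO polysome replicate 1, Psmc6 was called at the same difference (adjusted p = 2.32e-05).

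The lid was split. Psmd3, Psmd11, Psmd12 and Psmd13, which form its helical scaffold together with others, were lower, with log2 differences of -0.98, -0.55, -0.94 and -0.76. Psmd11 passed only narrowly (adjusted p = 0.0461) and lost its call under 8 of the 12 left-out libraries. Psmd14, the deubiquitinase, had -0.34, its partner Psmd7 had -0.22 and Psmd6, another scaffold subunit, had -0.48, none past the threshold. Psmd8 went the other way. It had 114, 102 and 124 FPKM on cHet polysomes, against 62.0, 63.6 and 68.1 FPKM in cHet input, a log2 difference of 0.81 (SE 0.14, adjusted p = 0.000596). Its 3 polysome libraries were all above its 3 input libraries.

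Of core genes, Psmb2 had 159, 131 and 168 FPKM on cHet polysomes, against 88.3, 87.6 and 87.0 FPKM in cHet input, a log2 difference of 0.79 (SE 0.15, adjusted p = 0.001). Psma3 had 50.4, 42.7 and 49.6 FPKM on cHet polysomes, against 33.5, 32.9 and 33.3 FPKM in cHet input, a log2 difference of 0.51 (SE 0.13, adjusted p = 0.00592). For both genes every polysome library was above every input library. Psma3 did not pass with protein-coding scaling (0.28, adjusted p = 0.135). The catalytic subunits differed among themselves. Psmb6 had 178, 143 and 171 FPKM on cHet polysomes, against 118, 119 and 125 FPKM in cHet input, a difference of 0.44 (adjusted p = 0.0614). Psmb5 had 79.1, 65.3 and 98.1 FPKM on cHet polysomes, with a difference of -0.45 (adjusted p = 0.149), and Psmb7 had 25.9, 20.5 and 25.3 FPKM, with -0.33 (adjusted p = 0.108). None of the 3 passed, and in none did the fractions overlap: Psmb6 was higher and Psmb5 and Psmb7 lower in each polysome library. Psmb10 had a difference of 0.33 (adjusted p = 0.117) and was called higher when the shared lysate was added as a block (adjusted p = 0.0392).

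Of the 4 core chaperones, 3 were higher on polysomes. Psmg3 had 10.6, 9.13 and 10.3 FPKM on cHet polysomes, against 3.81, 4.40 and 3.91 FPKM in cHet input, a log2 difference of 1.29 (SE 0.21, adjusted p = 0.000486). Psmg1 and Psmg2, the other chaperone pair of the alpha ring, had differences of 0.58 and 0.72 and also passed. Psmg4 had 0.14 and did not, with 58.8, 80.1 and 50.5 FPKM on cHet polysomes, against 55.0, 59.7 and 54.6 FPKM in cHet input. Of the chaperones of the base, Psmd9 was higher (0.77), Psmd5 was lower (-0.49, adjusted p = 0.0338) and Psmd10 had 0.15, not past the threshold. Psmg1 did not pass with protein-coding scaling (0.35, adjusted p = 0.0548). Psmd5 lost its call when any cHet input library, or cHet polysome replicate 1 or 2, was left out.

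The activators differed. Psme3, the subunit of a nuclear activator ring, had 150.1, 134 and 149 FPKM on cHet polysomes, against 85.0, 81.7 and 81.5 FPKM in cHet input, a log2 difference of 0.80 (SE 0.14, adjusted p = 0.000765). Psme2 had 38.9, 32.1 and 48.8 FPKM on cHet polysomes, against 18.0, 21.0 and 21.3 FPKM in cHet input, a difference of 0.97 (SE 0.19, adjusted p = 0.00128). The fractions did not overlap for either gene. Its partner Psme1, which lies 5911 bases away on chromosome 14, had 25.4, 20.7 and 24.1 FPKM on cHet polysomes, against 28.3, 27.5 and 27.6 FPKM in cHet input, a difference of -0.25 that did not pass (adjusted p = 0.286). Psme1 is at chr14:55578123-55581529 on the plus strand and Psme2 at chr14:55587441-55591113 on the minus strand, with 11 exons each. Psme2b, a gene of a single exon with the same coding length as Psme2 (717 bases), had 41.4, 36.9 and 42.8 FPKM on cHet polysomes, against 28.3, 21.6 and 23.2 FPKM in cHet input, a difference of 0.73 (adjusted p = 0.00115). Reads of these similar genes could be split between them in counting, so neither value is certain. Psme4, a large nuclear activator, was lower (-0.86, adjusted p = 0.0422), as was the inhibitor Psmf1 (-0.47, adjusted p = 0.0122). Psme4 lost its call under 9 of the 12 left-out libraries, and Psmf1 without cHet polysome replicate 1 (adjusted p = 0.0658). Psmc3ip, the gene outside the complex, was higher (0.77).

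In cHet, the groups did not overlap for 39 of the 46 genes, where 75.3% of all genes tested did not overlap. Without cKO polysome replicate 1 and cKO input replicate 3, which enter the shared estimate of spread, the cHet count was 16 higher and 23 lower at the same differences, where 36% of all genes were called higher and 35.7% lower. All 26 original calls were kept, and 15 of 17 regulatory particle genes and 4 of 14 core genes were then lower, while 6 core genes were higher. With voom on the recovered reads the counts were again 11 higher and 15 lower, and the same 26 genes were called.

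**Figure D2:**
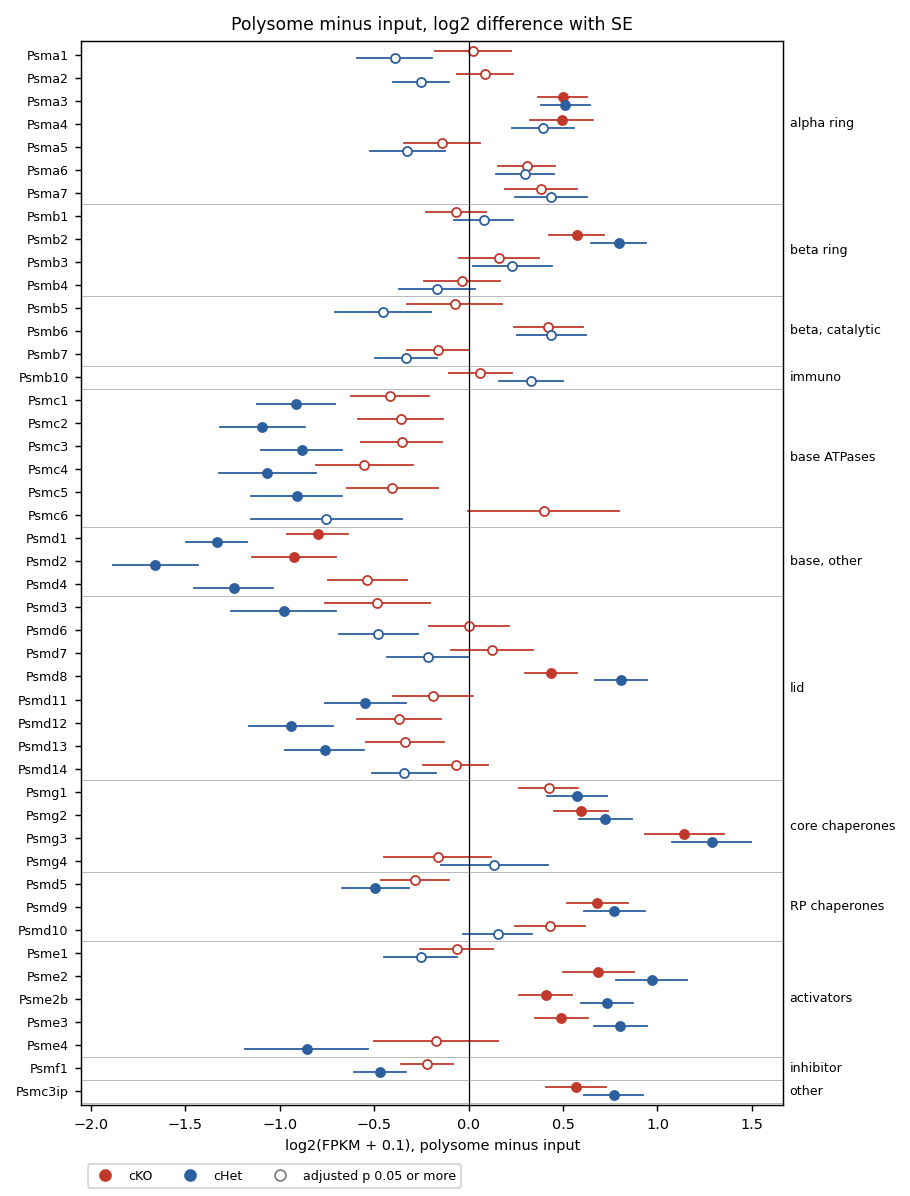
Difference in log2(FPKM + 0.1), polysome minus input, for the 46 tested genes by role, cKO in red above cHet in blue, with limma's SE as bars. Filled points have an adjusted p under 0.05, 13 in cKO and 26 in cHet, and the regulatory particle points of cHet lie to the left of 0 except for Psmd8.

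The median difference in cKO was 0.12 for core genes and -0.36 for regulatory particle genes, where that of all genes was 0.06. With protein-coding scaling these medians were -0.01, -0.49 and -0.07. The cKO values turn on polysome replicate 1. In that lysate all 14 core genes and 15 of 17 regulatory particle genes were higher on polysomes than in input, with medians of 0.63 and 0.37. In cKO lysates 2 and 3 the core medians were -0.14 and -0.01, and the regulatory particle medians were -0.61 and -0.86. In the cHet lysates the core medians were 0.28, -0.05 and 0.18, and the regulatory particle medians -0.85, -1.02 and -0.67. Without cKO polysome replicate 1, 10 genes were higher and 14 lower in cKO, where 22.4% of all genes were called higher and 22% lower. Of those 14, 11 were regulatory particle genes, and the median of all 17 was -0.67 and that of the core genes -0.03. Without both libraries that stood apart, 13 were higher and 16 lower, where 29.5% of all genes were called higher and 30% lower. Of the 17 regulatory particle genes 13 were lower, and the median of all 17 was -0.61. Over all genes, more were called in both of these fits than with all 12 libraries. Psmd4, Psmd12, Psmc1, Psmc2, Psmc4 and Psmc5 were among those called lower in both of these fits.

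Within a library, the ratio of core to regulatory particle levels does not depend on how libraries are scaled. As log2 of the core median over the regulatory particle median, it was 1.32, 1.48 and 1.64 in cKO polysomes and 1.87, 1.39 and 1.66 in cHet polysomes. It was 0.73, 0.67 and 0.71 in cKO input and 0.64, 0.65 and 0.64 in cHet input. All 6 polysome libraries were above all 6 inputs, cKO polysome replicate 1 included. The genotypes overlapped on polysomes, while in input all cKO libraries were slightly above all cHet libraries. Over the same fractions, epidermis markers summed to 424 FPKM in cKO polysome replicate 1 and to 233 and 219 FPKM in replicates 2 and 3. They summed to 165 to 176 FPKM in cHet polysomes, 372 to 403 in cKO input and 310 to 318 in cHet input. On polysomes, 5 of 8 epidermis markers were called lower in cKO and 7 in cHet. Of 8 endothelium markers, 3 were lower in cKO, and 5 were lower and 1 higher in cHet. Over all genes, 15.6% were called lower in cKO and 25.9% in cHet. Of 10 erythroid markers, 8 were positive in each genotype, with medians of 0.80 and 0.65, none called. Of 12 limb mesenchyme markers, 2 were called higher and 2 lower in cKO, and 5 and 2 in cHet. Of 11 macrophage markers, 2 were called higher in cKO, and 3 higher and 4 lower in cHet. Of 7 muscle markers, 1 was called higher and 3 lower in each genotype. Whether a shift in cell types between fractions has a part in the proteasome values was not tested.

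**Figure D3:**
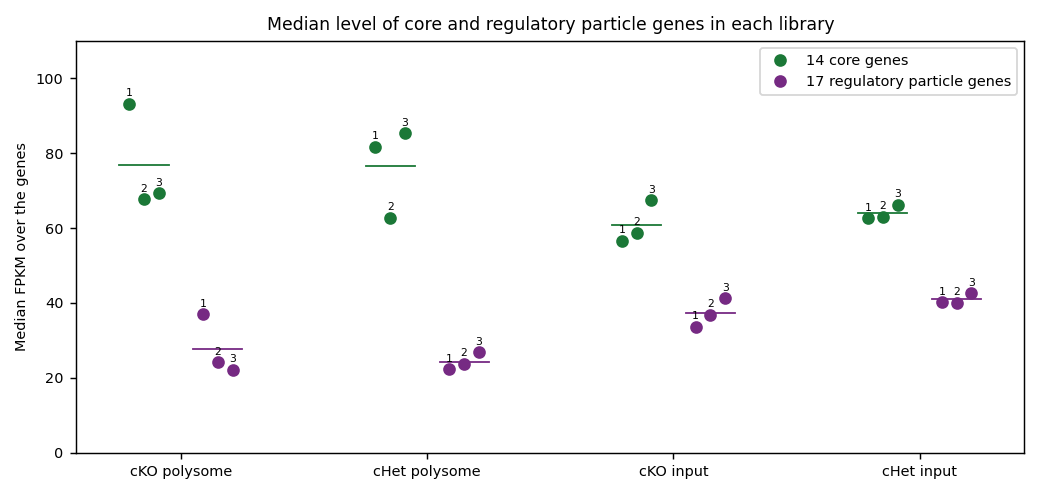
Median FPKM over the 14 core genes (green) and the 17 regulatory particle genes (purple) in each library, labelled by replicate, with the group mean as a line. Regulatory particle medians are 22.2 to 26.8 FPKM in 5 polysome libraries and 37.0 in cKO polysome replicate 1, against 33.7 to 42.6 in the inputs.

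Core and regulatory particle genes differ in length. By GENCODE M21, the longest coding sequence of core genes was 603 to 831 bases with a median of 741, and that of regulatory particle genes was 930 to 2859 bases with a median of 1254. Over the 31 genes, polysome minus input correlated with coding length at a Spearman rho of -0.76 in cKO and -0.85 in cHet. This pools both particles, whose lengths do not overlap. Within the core genes rho was -0.44 in cKO and -0.51 in cHet, and within the regulatory particle genes -0.69 and -0.76. Over all 11872 tested protein-coding genes with a coding length, rho was -0.61 in cKO and -0.66 in cHet. These are correlations across genes, which share libraries and are not independent replicates, and they are given as a description. Psmd1 (2859 bases) and Psmd2 (2724 bases) were the longest and, in both genotypes, the lowest of the 31, and Psmb2 (603 bases) was the shortest and the second highest in cHet. Psmd8 (1059 bases) was not among the shortest, and in cHet it was the highest of the 31.

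Within 3 wide bins of coding length, both particles had lower medians than all tested genes of the bin. The bins do not match length closely. The bin under 900 bases also takes in genes shorter than the shortest core gene, at 603 bases. That of 1500 bases and over has no upper limit. Among coding lengths under 900 bases, the median difference in cKO was 0.12 for the 14 core genes and 0.49 for all 3309 tested genes of that length, and in cHet it was 0.16 for core genes and 0.67 for all. Below 0 were 5 of 14 core genes in cKO, against 13.3% of all genes of that length, and 6 of 14 in cHet, against 13.0%. Among lengths of at least 900 and under 1500 bases, the median in cKO was -0.35 for 14 regulatory particle genes and 0.12 for all 3295 genes, and in cHet it was -0.82 and 0.09. Below 0 were 10 of these 14 in cKO, against 39.0% of all, and 13 of 14 in cHet, against 45.1%. Of 1500 bases and over, Psmd1, Psmd2 and Psmd3 had a median of -0.80 in cKO, against -0.25 over all 5268 genes, and of -1.34 in cHet, against -0.51. These medians carry no test, since the genes of a bin share libraries. The chaperones and activators called higher in either genotype also fell in the bin under 900 bases. Their coding lengths ran from 366 bases for Psmg3 to 867 for Psmg1. Their differences thus stand beside medians of 0.49 in cKO and 0.67 in cHet over all genes of that bin. Psmg4, Psmd10 and Psme1, not called, and Psmf1, lower in cHet, fell in it too. The part of length in these values was not tested.

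**Figure D4:**
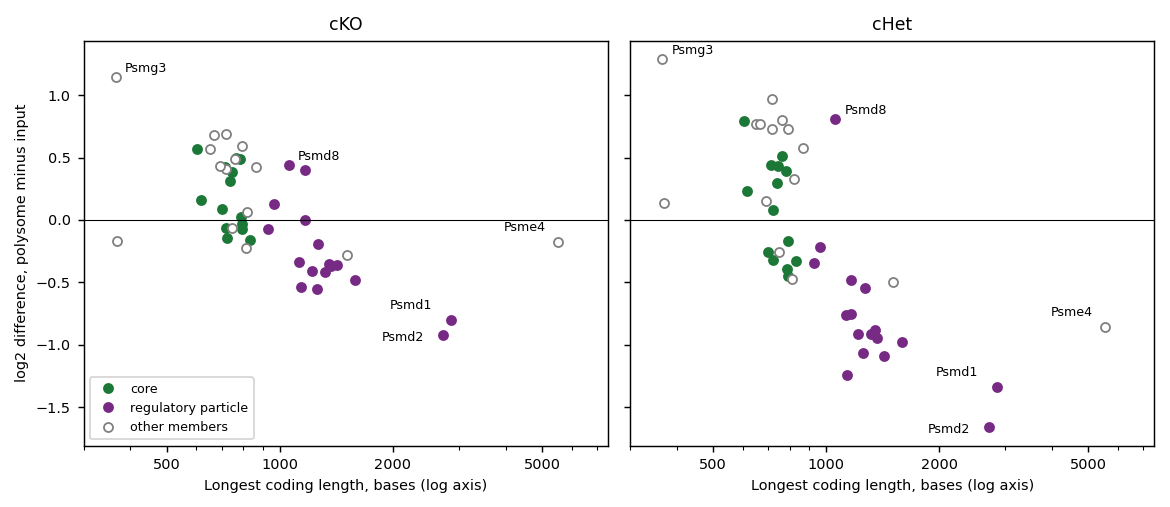
Longest coding length (log axis) against polysome minus input, log2(FPKM + 0.1), for the tested members in cKO (left) and cHet (right), with core genes in green, regulatory particle genes in purple and the others open. Core genes of 603 to 831 bases lie around 0, Psmd1 and Psmd2 lie at the bottom, and Psmd8 and Psmg3 stand high.

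The genotypes were compared within each fraction on its 6 libraries. No proteasome gene was called between cKO and cHet in input, where 0% of the 12977 genes tested were called at an adjusted p under 0.05. Where no gene at all is called, the lack of a call does not show equal levels. An unadjusted p under 0.05 was reached by 4 of the 46 and by 1943 of all genes, and voom on the recovered reads also called none. Without cKO input replicate 3, still none of the 46 was called, while of all genes 1.94% were called higher and 0.6% lower in cKO. Of the 46, 36 had a negative log2 difference (cKO minus cHet), among them 16 of 17 regulatory particle genes with a median of -0.24 and 12 of 14 core genes with a median of -0.18, where the median of all genes was -0.01. Without cKO input replicate 1 these medians were -0.13 and -0.07. Without cKO input replicate 3, the input that stood apart, they were further from 0, at -0.29 and -0.22, where the median of all genes was -0.007. The groups did not overlap for 19 of the 46, 16 of them lower in cKO, where 29.3% of all genes tested did not overlap. Beside these values, 10 of 10 erythroid markers were also negative, with a median of -0.51, and 7 of 8 epidermis, 10 of 10 macrophage and 10 of 12 limb mesenchyme markers were positive, with medians of 0.32, 0.50 and 0.40, none past the threshold. The part of these shifts in the proteasome values was not tested.

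The 4 genes with the smallest p in input did not pass. Psmd6, a lid subunit, had 26.0, 33.3 and 19.3 FPKM in cKO input, against 38.6, 37.9 and 38.3 FPKM in cHet input, a log2 difference of -0.58 (SE 0.19, adjusted p = 0.251). Psma2, an alpha ring subunit, had 25.5, 29.7 and 29.4 FPKM in cKO input, against 34.0, 34.3 and 37.7 FPKM in cHet input, a difference of -0.33 (SE 0.11, adjusted p = 0.26). Psmc2, a base ATPase, had 14.9, 19.7 and 17.3 FPKM in cKO input, against 22.4, 21.5 and 22.4 FPKM in cHet input, a difference of -0.36 (SE 0.13, adjusted p = 0.277). For these genes all cKO libraries lay below all cHet libraries. Psmd7 was the regulatory particle gene with a positive value, with all cKO inputs above all cHet inputs and a difference of 0.32 (SE 0.11, adjusted p = 0.267). Psmc6 and Psme4 had the most negative differences, -0.84 and -0.81, with the widest errors (SE 0.50 and 0.41). Psme4 had 12.1, 13.8 and 4.24 FPKM in cKO input, against 15.4, 15.004 and 16.6 FPKM in cHet input, so that, as for Psmc6, replicate 3 stood far below the other cKO libraries. Without it the differences were -0.18 for Psmc6, -0.28 for Psme4 and -0.38 for Psmd6. The catalytic subunits had -0.20 for Psmb5 (SE 0.22), -0.30 for Psmb6 (SE 0.16) and -0.15 for Psmb7 (SE 0.11).

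On polysomes no proteasome gene was called between cKO and cHet, where 0% of 12877 genes tested were called. An unadjusted p under 0.05 was reached by 4 of the 46 and by 2743 of all genes, and voom called none. Without cKO polysome replicate 1, still none of the 46 was called, while of all genes 0.785% were called higher and 0.471% lower in cKO. Regulatory particle genes had a positive difference in 15 of 17 cases with a median of 0.28, and core genes a negative one in 9 of 14 with a median of -0.08, where the median of all genes was 0.02. Without cKO polysome replicate 1 the regulatory particle median was 0.03 and the core median -0.24. Beside these values, 7 of 8 epidermis, 11 of 11 macrophage, 7 of 8 endothelium and 10 of 12 limb mesenchyme markers were positive, with medians of 0.73, 0.59, 0.21 and 0.17, and 10 of 10 erythroid markers were negative, with a median of -0.34. None passed the threshold. These marker medians are given only with cKO polysome replicate 1 included, and the part of these shifts was not tested. The groups did not overlap for 9 of the 46 genes, where 31.4% of all genes did not. Psmg1, the alpha ring chaperone, had 36.5, 31.1 and 38.8 FPKM on cKO polysomes, against 52.3, 44.6 and 50.2 FPKM on cHet polysomes, a difference of -0.47 (SE 0.15, adjusted p = 0.156). Psmd8 had 73.9, 85.6 and 88.0 FPKM on cKO polysomes, against 114, 102 and 124 FPKM on cHet polysomes, a difference of -0.46 (SE 0.16, adjusted p = 0.168). For both, every cKO library was below every cHet library. Psmd7 had 184, 109.6 and 105 FPKM on cKO polysomes, against 85.1, 63.3 and 99.8 FPKM on cHet polysomes, a difference of 0.66 (SE 0.26, adjusted p = 0.202). Psmd5, a chaperone of the base, had 10.992, 7.89 and 7.07 FPKM on cKO polysomes, against 5.62, 5.56 and 7.42 FPKM on cHet polysomes, a difference of 0.46 (SE 0.20, adjusted p = 0.223). For Psmd7 all cKO libraries were above all cHet libraries, and for Psmd5 the ranges overlapped. The Psmd7 difference was 0.40 without cKO polysome replicate 1. None of these differences passed the threshold.

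**Figure D5:**
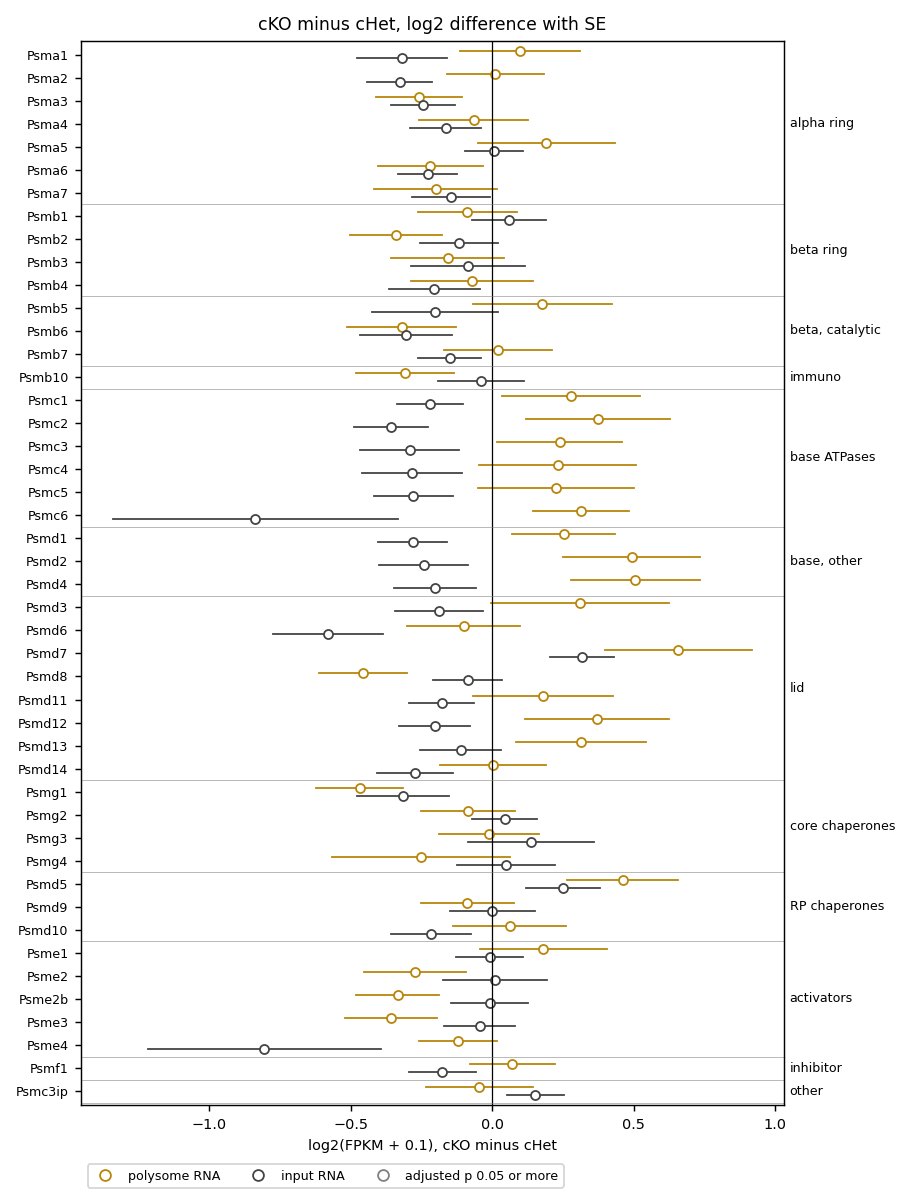
Difference in log2(FPKM + 0.1), cKO minus cHet, for the 46 tested genes by role, on polysomes (ochre) above input (grey), with limma's SE as bars. All points are open, since none has an adjusted p under 0.05, and in input 36 of 46 lie left of 0.

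Whether the polysome to input difference itself differs between the genotypes was tested as an interaction over all 12 libraries. No proteasome gene passed, where 0% of 13610 genes were called and the lowest adjusted p of all genes was 0.790. An unadjusted p under 0.05 was reached by 4 of the 46 and by 638 of all genes, and voom called none of the 46. The difference of differences was positive for 16 of 17 regulatory particle genes, with a median of 0.50, and the core median was 0.05, where that of all genes was 0.02. Without cKO polysome replicate 1 the regulatory particle median was 0.24 and the core median -0.08. Most other lists were largely positive too. These were all 8 epidermis, all 8 endothelium, 9 of 11 macrophage, 9 of 10 erythroid and 6 of 7 muscle markers. Their medians were 0.37, 0.28, 0.18, 0.13 and 0.20. Of 32 other ubiquitin-proteasome genes, 26 were positive, with a median of 0.26. Limb mesenchyme markers were split, with 6 of 12 positive and a median of -0.02. The medians of these lists are given only with all 12 libraries, and the part of these shifts was not tested. The 4 genes with the smallest p belonged to the base: Psmd4 had 0.71 (SE 0.29), Psmd2 0.73 (SE 0.32), Psmd1 0.53 (SE 0.23) and Psmc2 0.73 (SE 0.32), all with an adjusted p of 0.790. With cKO polysome replicate 1 left out, these were 0.45 for Psmd4, 0.44 for Psmd2, 0.33 for Psmd1 and 0.43 for Psmc2. Psmc6 had 1.15, with an SE of 0.57, and 0.49 without cKO input replicate 3. Psmd4 had 38.6, 23.3 and 21.4 FPKM in cKO polysomes, 19.1, 16.7 and 20.9 in cHet polysomes, 31.8, 42.3 and 43.9 in cKO input and 43.8, 45.2 and 45.4 in cHet input. Psmc2 had 20.5, 11.5 and 10.1 FPKM in cKO polysomes, 9.81, 9.28 and 11.967 in cHet polysomes, 14.9, 19.7 and 17.3 in cKO input and 22.4, 21.5 and 22.4 in cHet input. In both genes the first cKO polysome library was far above the other 2. The larger number of calls in cHet than in cKO is thus not shown to differ between the genotypes.

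Other genes of the ubiquitin-proteasome system were taken from a list of 32, all tested. In cKO 2 were higher on polysomes and 5 lower, with a median of -0.17, and in cHet 5 were higher and 13 lower, with a median of -0.40. Over all genes, 32.5% were called in cKO (16.9% higher, 15.6% lower) and 53.2% in cHet (27.3% higher, 25.9% lower). Pomp, the chaperone that completes the core particle, had 51.7, 44.6 and 58.0 FPKM on cKO polysomes, against 20.9, 24.9 and 23.4 FPKM in cKO input, a log2 difference of 1.15 (SE 0.14, adjusted p = 0.000331). In cHet it had 66.5, 55.3 and 64.8 FPKM on polysomes, against 25.8, 24.7 and 26.6 FPKM in input, a difference of 1.27 (SE 0.14, adjusted p = 9.72e-05). Sem1, the small lid subunit whose symbol lies outside the rule, was higher, with log2 differences of 1.32 in cKO and 1.25 in cHet. It has a coding length of 210 bases. Uba1, the main ubiquitin-activating enzyme, was lower, with -1.04 in cKO and -1.51 in cHet, as was Vcp, the ATPase that extracts ubiquitinated proteins, with -0.68 in cKO and -1.61 in cHet. Ipo9, an importin of proteasomes, was lower, with -0.81 in cKO and -0.92 in cHet.

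None of the 32 differed between the genotypes past the threshold. In input the smallest p were those of Vcp (-0.39, adjusted p = 0.279), Txnl1, Nfe2l2 and Uba1. On polysomes they were those of Ubqln2 (0.67, adjusted p = 0.123) and Fbxo7 (0.45, adjusted p = 0.15). Nfe2l1, the factor that induces proteasome genes, had 29.5, 21.0 and 17.7 FPKM in cKO polysomes, 14.6, 14.2 and 19.7 in cHet polysomes, 28.0, 28.0 and 36.7 in cKO input and 25.6, 26.3 and 28.4 in cHet input. It was lower on polysomes in cHet (-0.74, adjusted p = 0.00806), had -0.46 in cKO (adjusted p = 0.0919), and overlapped between the genotypes in input.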

How the data were processed

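Polysome and input RNA of E12.5 limb bud cytoplasm was sequenced in 12 libraries. HISAT2 2.0.5, featureCounts 1.5.0-p3 and mm10 are named, per the submitters' processing notes. The values used are FPKM per gene as the authors deposited them, with gene lengths. FPKM times length gave whole reads, within 0.01, for 100% of values above 0, and so the depth of each library. Median ratios over the 18104 genes with reads in all libraries were 1 in each library, so the deposited FPKM already carried that scaling, and assigned reads were 94.9% to 102% of the totals it implies. The sources used here do not state how strand and multi-mapping reads were treated. Reads of antisense or near-identical genes can therefore not be told apart.

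Differences were fitted with limma 3.58.1 (R 4.3.3, trended variance) to log2(FPKM + 0.1), a scale that understates the change of low genes. Genes with FPKM of at least 1 in at least 3 of the fitted libraries were tested, two-sided, with Benjamini-Hochberg adjustment over all of them. Genotypes were compared on the 6 libraries of a fraction, and polysome against input and the interaction on all 12 with 4 group means. The fit was tested on simulated data. Values per library are given for the catalytic and immunoproteasome subunits, the highest and lowest genes of each particle, chromosome neighbours and, per comparison, the members with the smallest p, up to 4 per class. Of other lists, up to 4 genes with the smallest p are named per comparison, and some of these are not reported here. Psmg4, Psmd9, Psmc6, Psme4, Psma8, Psmb11 and Nfe2l1 were given in more detail after their values were seen. The members and lists were chosen with earlier results of these data known.

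Polysome and input libraries that share genotype and number were taken as 1 lysate, as the study's design describes. Across genes, deviations from group means correlated within lysates at 0.0525 to 0.231 in cKO and 0.125 to 0.249 in cHet. Numbers did not pair the genotypes (-0.281 to 0.165). Alternatives were pseudocounts of 0.01 and 1, no filter, other scalings, voom on the recovered reads, a replicate block, a fit over all libraries for the genotype comparisons, and leaving out libraries. Scaling by assigned read totals was chosen after seeing the data. Coding lengths came from GENCODE M21, where 53462 of 54532 genes had the same coordinates, 48 of the 50 members among them. Promoter windows came from RefSeq. Protein sequences were not used here.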

Additional observations from a re-analysis of the deposited data

How the results depend on the processing

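The sign of the core minus regulatory particle median was kept in all 5 comparisons under every alternative run. Another scaling moves both medians alike, and the block and the fit over all libraries leave the group means as they are. These alternatives therefore do not test the sign. Leaving out each library in turn, this gap ranged from 0.052 to 0.092 for genotype in input, from 0.37 to 0.64 for polysome against input in cKO, and from -0.62 to -0.33 for the interaction. Over those fits, the members higher on polysomes in cKO ranged from 5 to 11, and those lower from 2 to 14. Leaving out cKO input replicate 3 and cKO polysome replicate 1 together gave 13 members higher, 16 lower and a gap of 0.66 in cKO, and 23 lower in cHet. In those fits, 29.5% of all genes were called higher and 30% lower in cKO, and 36% and 35.7% in cHet. The replicate block on the lysate gave 11 higher and 2 lower in cKO and 12 and 15 in cHet. It added Psmb10 in cHet and changed no other call. The replicate block within a fraction gave no member called in a genotype comparison. With voom, 2342 of all genes were higher and 2201 lower on polysomes in cKO, and 3767 and 3602 in cHet. Fitted over all 12 libraries, the genotype comparisons called no member, and over all genes 76 higher and 6 lower in input and 146 and 38 on polysomes.

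Small differences of catalytic subunits changed sign, and the cause was not tested. Over left-out libraries, Psmb10 ranged from -0.15 to 0.072 for genotype in input and from -0.081 to 0.22 for polysome against input in cKO. Psmb5 ranged from -0.41 to 0.040 for genotype in input, from -0.067 to 0.34 for genotype on polysomes, and from -0.32 to 0.14 for polysome against input in cKO. Psmb7 ranged from -0.16 to 0.12 for genotype on polysomes and from -0.014 to 0.27 for the interaction, and Psmb6 from -0.17 to 0.14 for the interaction. With protein-coding scaling, polysome against input of Psmb10 was -0.066 in cKO, and the Psmb6 interaction was 0.082. Scaled by assigned totals, the Psmb6 interaction was 0.026. Median-ratio scaling gave -0.028 for Psmb7 genotype on polysomes. Without both doubted libraries, the interactions of Psmb6 and Psmb10 were 0.0012 and 0.0025, and polysome against input of Psmb10 in cKO was 0.33 and called. Depth of 10349912 to 30068823 reads limits Psmb8, Psmb9, Psma8 and Psmb11, which were described without a test.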
